A study of Homo sapiens with 6 samples.

Results

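The 10 genes described here encode TNF, its receptor TNFR1 and the proteins that carry the receptor's signal to the kinases TAK1 and ASK1: TNF, TNFRSF1A, TRADD, TRAF1, TRAF2, RIPK1, MAP3K7, TAB1, TAB2 and MAP3K5. They were taken by gene name from a table of 58735 genes, and all 10 were found. RNA-Seq was done on MCF10A cells, a nonmalignant line of human breast epithelium, in 2 groups of 3 libraries. The cells of 1 group (siDAB2IP) had been transfected with siRNA against DAB2IP, and those of the other (siControl) with a nontargeting control pool, 48 hours before RNA was isolated. Both groups were grown in DMEM/F12 with horse serum, insulin, EGF, cholera toxin and hydrocortisone. No TNF was named among these additions. The knockdown rests on 1 siRNA reagent in 1 cell line, and no source says that the libraries came from separate cultures, so p-values measure the spread between these libraries, which may be technical.

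TNF is a cytokine, made above all by immune cells, that binds the receptor TNFR1 on nearly all cells. The bound receptor recruits the adaptor TRADD, which brings in the kinase RIPK1 and the TRAF proteins, and chains of ubiquitin built on this complex recruit TAK1 (MAP3K7) with its partners TAB1 and TAB2, which switches on the IKK kinases and NF-κB. The same complex can activate ASK1 (MAP3K5), a kinase above JNK and p38 that thioredoxin holds inactive in unstressed cells. DAB2IP, a Ras GTPase-activating protein also named AIP1 for its binding to ASK1, is a scaffold that binds TRAF2, RIPK1 and ASK1. The comparison therefore asked whether the RNA levels of these partners differed where DAB2IP had been lowered.

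The target itself was lower in every siDAB2IP library. DAB2IP was counted 1655, 2030 and 1318 times in siControl 1, 2 and 3 and 487, 462 and 386 times in siDAB2IP 1, 2 and 3. In CPM (counts scaled to library size by the TMM method), the group means were 91.6 ± 13.1 and 25.1 ± 2.57 (SD, n = 3), and the log2 fold change was -1.86 (SE 0.13, 95% interval -2.16 to -1.57, edgeR's quasi-likelihood test, adjusted p = 9.71e-05). Libraries held 16353783 to 21916062 counts. All 8 markers of mammary epithelium were expressed at a level that was tested, and their summed level was 9700 to 12000 CPM in siControl and 6260 to 7650 CPM in siDAB2IP, since KRT5, KRT6A, KRT14 and KRT17 fell. Of 7 immune cell markers, CD3E had 0 counts in all 6 libraries and PTPRC had at most 4 counts in any, while the list's sum, mostly CD14, was 36.8 to 71.3 CPM in siControl and 51 to 78 CPM in siDAB2IP. The 4 endothelial markers summed to 23.1 to 33.1 CPM in siControl and 14.8 to 16.3 CPM in siDAB2IP, with KDR lower, and the 4 fibroblast markers to 162 to 291 and 146 to 205 CPM. Most of the fibroblast sum was DCN, at 201 ± 65.9 and 143 ± 25.8 CPM (SD, n = 3, log2 fold change -0.49, edgeR adjusted p = 0.151). COL1A1 rose from 15.3 to 26.3 CPM, and COL1A2 and PDGFRA had 4 counts or fewer in every library. The part of these markers in the results was not tested, and in bulk RNA fewer cells of a type and less RNA per cell cannot be told apart.

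Of the 10 genes, 9 passed the filter on low counts and were tested. MAP3K5 was the 1 gene that fell, by 26.5%, and 0 rose by edgeR, DESeq2 or limma on log2(FPKM + 1). Over all 15430 genes tested, 6.55% rose and 7.65% fell at an adjusted p under 0.05. At an unadjusted p under 0.05, 2 of the genes were higher (TRADD and TAB1) and 1 was lower (MAP3K5), against 14.5% and 15.5% of all genes tested. The fold changes were small, with a median size of 0.12 on the log2 scale for the 9 genes against 0.24 for all genes tested and 0.71 for the 2192 genes called changed. In sign, 7 of the 9 were higher in siDAB2IP and 2 lower, where 7884 of all 15430 genes tested were higher. The median log2 fold change of the 9 was 0.07 against 0.01 for all genes.

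The sequences just upstream of 3 of the genes are shown because they are the ligand, the receptor's kinase and the kinase that fell. They are taken from RefSeq (GRCh38.p14), each being the 250 bases before an annotated transcription start, with no base in an exon of the gene, read 5′ to 3′ on the gene's own strand. Capitals mark the TATA box TATAAA and the GC box GGGCGG or its reverse complement CCGCCC. The MAP3K5 start used here lies upstream of the 5′ end that the count table gives the gene.
TNF, chr6:31575315-31575564 (plus strand): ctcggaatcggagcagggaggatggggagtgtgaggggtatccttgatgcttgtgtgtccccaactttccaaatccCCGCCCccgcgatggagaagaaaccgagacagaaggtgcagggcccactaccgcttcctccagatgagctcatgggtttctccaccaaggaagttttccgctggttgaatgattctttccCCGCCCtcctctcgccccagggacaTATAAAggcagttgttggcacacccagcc
RIPK1, chr6:3063717-3063966 (plus strand): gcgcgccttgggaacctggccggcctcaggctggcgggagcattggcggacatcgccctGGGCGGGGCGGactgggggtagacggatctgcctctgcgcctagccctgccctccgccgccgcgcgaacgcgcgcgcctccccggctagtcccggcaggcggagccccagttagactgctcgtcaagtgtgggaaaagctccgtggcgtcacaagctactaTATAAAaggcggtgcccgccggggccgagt
MAP3K5, chr6:136793092-136793341 (minus strand): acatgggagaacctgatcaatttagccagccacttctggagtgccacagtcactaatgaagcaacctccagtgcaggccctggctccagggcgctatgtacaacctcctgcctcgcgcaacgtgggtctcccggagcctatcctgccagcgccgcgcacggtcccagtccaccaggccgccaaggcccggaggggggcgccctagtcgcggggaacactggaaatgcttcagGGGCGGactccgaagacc

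RefSeq's windows of 300 bases (250 before and 50 after a start) were given for 9 of the genes. TRADD had no entry in the table. Both strands were searched for the TATA box, the GC box, the AP-1 motif TGANTCA and the NF-κB motif. The TATA box, which fixes where transcription starts, stood in the windows of TNF and of the first of 3 RIPK1 starts, 29 and 30 bases before the start, and in none of the windows of the other 7 genes. It was found in 11.5% of all 35116 RefSeq windows. In RIPK1 the pair of GC boxes overlapped each other, and MAP3K5 held 1 GC box in each of its 2 windows. GC boxes, which Sp1 proteins bind, were found in 45.0% of all windows. The AP-1 motif, present in 7.71% of all windows, had no match in those of the 9 genes, and the NF-κB motif, present in 5.91%, had 1 match, past the start of the second of 2 TAB2 windows. A match describes letters and is not a bound site, and the lack of one says only that these letters do not stand in these windows.

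The ligand was barely detected. TNF (ENSG00000232810, chr6:31575567-31578336, plus strand, GRCh38) had 3, 4 and 2 counts in siControl 1, 2 and 3 and 10, 3 and 6 counts in siDAB2IP 1, 2 and 3. The groups overlapped, and 3 libraries were at or under 3 counts, the most that a count of 0 leaves possible (0.139 to 0.187 CPM by library, covering counting error only). The gene did not pass the filter on low counts, no fold change was computed, and a two-sided exact permutation test of its CPM gave p = 0.3, where 3 libraries against 3 cannot go below 0.1.

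The receptor was by far the most abundant of the 10 genes. TNFRSF1A (ENSG00000067182, chr12:6328757-6342114, minus strand), which encodes TNFR1, stood at 257, 278 and 251 CPM in siControl 1, 2 and 3 and at 290.4, 292 and 242 CPM in siDAB2IP 1, 2 and 3. siDAB2IP 3 was the lowest of all libraries and the other siDAB2IP libraries the highest, so the groups overlapped. The means were 262 ± 14.4 and 275 ± 28.5 CPM (SD, n = 3), and the log2 fold change of 0.07 had a 95% interval of -0.18 to 0.31 (edgeR adjusted p = 0.728).

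**Figure D1:**
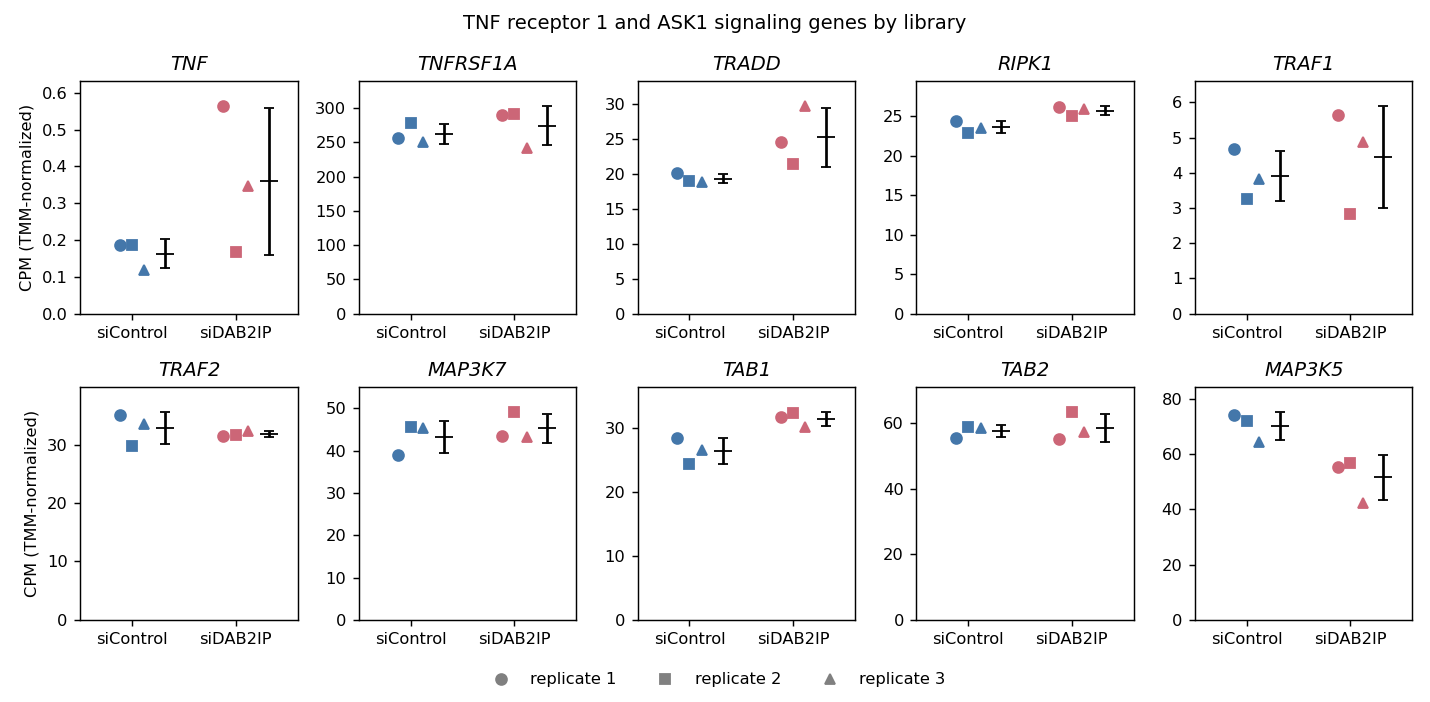
Level of each of the 10 genes in each library in CPM (TMM-normalized, y axis from 0), with siControl in blue and siDAB2IP in red. Marker shapes give the replicate number and the black bars the mean ± SD of 3 libraries. The 3 siDAB2IP libraries of MAP3K5 (42.3 to 56.9 CPM) lie below the 3 siControl libraries (64.4 to 74.1 CPM), and those of TRADD, RIPK1 and TAB1 lie above theirs.

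Among the adaptors, TRADD differed most between the groups. TRADD (ENSG00000102871, chr16:67154180-67160298, minus strand), which binds the receptor's death domain and brings in RIPK1 and TRAF2, stood at 20.1, 19.0 and 18.9 CPM in the siControl libraries and at 24.6, 21.4 and 29.7 CPM in siDAB2IP 1, 2 and 3. All 3 siDAB2IP libraries were above all 3 siControl libraries, with siDAB2IP 3 farthest from them. The log2 fold change was 0.38 (SE 0.14, 95% interval 0.07 to 0.70, edgeR unadjusted p = 0.0227), which did not pass after adjustment over all genes (edgeR adjusted p = 0.101). Without siDAB2IP 3 the value was 0.25, over 1.5 times smaller. TRADD shares 126 exonic bases with FBXL8 on the opposite strand, which held 2608 counts over the 6 libraries against 2390 for TRADD, and the strand used in counting is not given in the sources used here.

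RIPK1 and TRAF2 differed little. RIPK1 (ENSG00000137275, chr6:3063991-3115187, plus strand), the kinase on which ubiquitin chains are built and which can also start cell death, stood at 24.4, 22.9 and 23.5 CPM in siControl 1, 2 and 3 and at 26.2, 25.1 and 25.9 CPM in siDAB2IP 1, 2 and 3. The groups did not overlap, yet the step between them was small: the log2 fold change was 0.12 (95% interval -0.12 to 0.37, edgeR adjusted p = 0.496). RIPK1 shares 238 exonic bases with the antisense gene AL031963.3, which had 65 counts in all. TRAF2 (ENSG00000127191, chr9:136881912-136926607, plus strand), the adaptor that brings the ubiquitin ligases cIAP1 and cIAP2 to the receptor, stood at 35.1, 29.8 and 33.6 CPM in the siControl libraries and at 31.5, 31.6 and 32.4 CPM in the siDAB2IP libraries. Its siDAB2IP values lay within the range of siControl, with a log2 fold change of -0.04 (95% interval -0.29 to 0.20, edgeR adjusted p = 0.828).

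TRAF1, a TRAF protein without the RING domain that binds TRAF2 and is itself induced by NF-κB in many cells, was low and variable. TRAF1 (ENSG00000056558, chr9:120902393-120929173, minus strand) stood at 4.67, 3.25 and 3.82 CPM in siControl 1, 2 and 3 and at 5.64, 2.82 and 4.87 CPM in siDAB2IP 1, 2 and 3. Replicate 2 was the lowest library of either group, and the groups overlapped. The log2 fold change of 0.19 had the widest 95% interval of the 9 genes, from -0.43 to 0.81 (edgeR adjusted p = 0.703), and its sign turned to -0.021 without siDAB2IP 1.

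Of the TAK1 complex, TAB1 was higher in every siDAB2IP library. TAB1 (ENSG00000100324, chr22:39399741-39437060, plus strand), which binds TAK1 and lets it activate itself, stood at 28.5, 24.4 and 26.5 CPM in the siControl libraries and at 31.8, 32.3 and 30.2 CPM in the siDAB2IP libraries. The groups did not overlap, with means of 26.5 ± 2.06 and 31.4 ± 1.10 CPM (SD, n = 3). The log2 fold change of 0.25 (SE 0.11, edgeR unadjusted p = 0.0498) did not pass after adjustment (edgeR adjusted p = 0.166).

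MAP3K7 and TAB2 showed smaller differences. MAP3K7 (ENSG00000135341, chr6:90513573-90587045, minus strand), which encodes TAK1 itself, stood at 38.9, 45.5 and 45.3 CPM in siControl 1, 2 and 3 and at 43.4, 49.1 and 43.3 CPM in siDAB2IP 1, 2 and 3. TAB2 (ENSG00000055208, chr6:149218641-149411613, plus strand), which ties TAK1 to ubiquitin chains, stood at 55.5, 58.9 and 58.5 CPM in the siControl libraries and at 55.1, 63.4 and 57.4 CPM in the siDAB2IP libraries. Both genes overlapped between the groups. The log2 fold changes were 0.06 for MAP3K7 (95% interval -0.18 to 0.31, edgeR adjusted p = 0.741) and 0.02 for TAB2 (95% interval -0.19 to 0.24, edgeR adjusted p = 0.898), and the sign of each turned when siControl 1 was left out (-0.027 and -0.025), as did that of TAB2 without siDAB2IP 2 (-0.036).

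ASK1 itself was the gene that fell. MAP3K5 (ENSG00000197442, chr6:136557047-136792518, minus strand) stood at 74.1, 71.8 and 64.4 CPM in siControl 1, 2 and 3 and at 55.5, 56.9 and 42.3 CPM in siDAB2IP 1, 2 and 3. Every siDAB2IP library lay below every siControl library, and replicate 3 was the lowest of each group. The group means were 70.1 ± 5.09 and 51.5 ± 8.06 CPM (SD, n = 3), and the log2 difference was -0.44 (SE 0.13, 95% interval -0.72 to -0.16, edgeR adjusted p = 0.0429). Of all genes tested, 73.3% had a smaller fold change in size.

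The call on MAP3K5 lay close to the threshold. It was kept by DESeq2 (adjusted p = 0.0224) and lost by limma on log2(FPKM + 1), where the fold change was -0.42 (adjusted p = 0.0676). With 1 library left out, the edgeR adjusted p was 0.104 without siControl 1, 0.125 without siControl 2, 0.058 without siControl 3 and 0.0649 without siDAB2IP 1, while the call held without siDAB2IP 2 (0.0469) and without siDAB2IP 3 (0.0484). The direction was the same in all 15 alternatives, with log2 fold changes between -0.52 and -0.32.

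**Figure D2:**
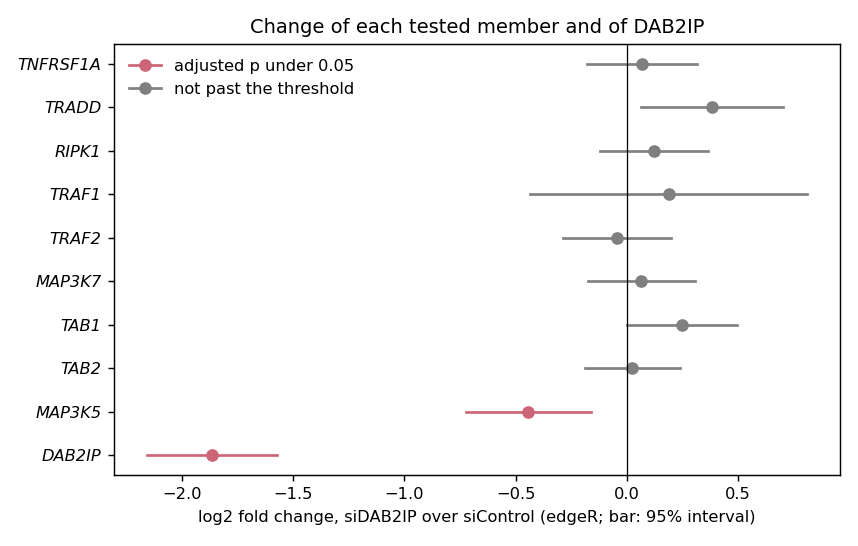
Log2 fold change of siDAB2IP over siControl (x axis) for the 9 tested genes and DAB2IP, with bars for the 95% interval from edgeR. MAP3K5 (-0.44) and DAB2IP (-1.86), in red, pass an adjusted p under 0.05, and the 8 genes in grey do not.

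**Figure D3:**
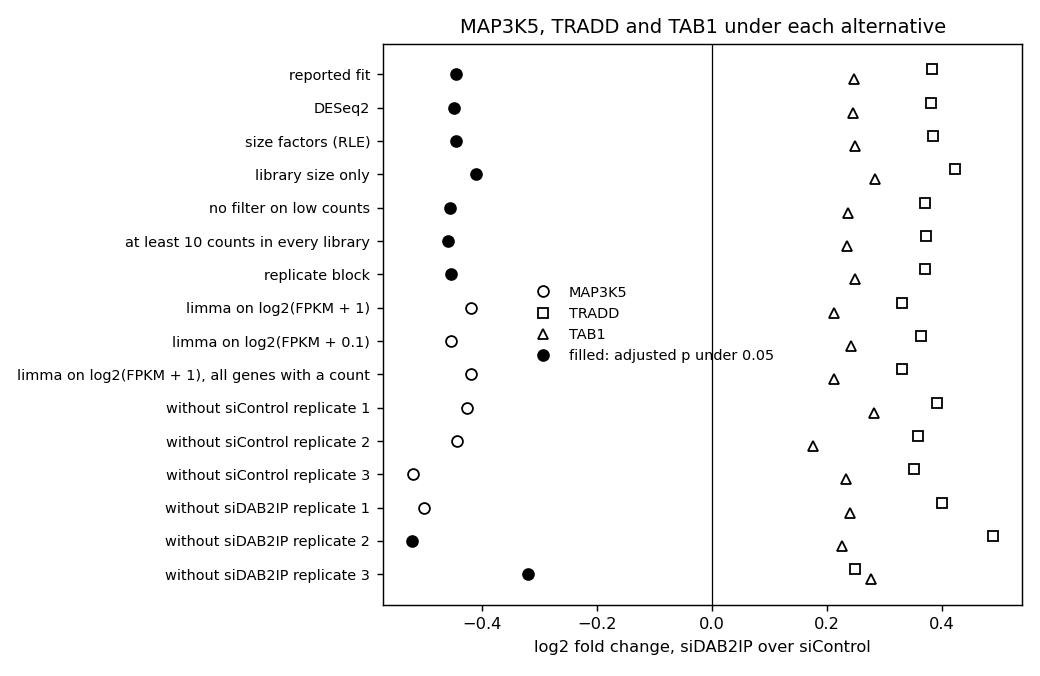
Log2 fold change (x axis) of MAP3K5, TRADD and TAB1 under the reported fit and each alternative, filled where the adjusted p is under 0.05. MAP3K5 stays between -0.52 and -0.32 and is filled in 8 of 15 alternatives, while TRADD (0.25 to 0.49) and TAB1 (0.18 to 0.28) are filled in none.

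In all, the CPM of 4 of the 9 genes did not overlap between the groups (TRADD, RIPK1, TAB1 and MAP3K5), where 35.9% of all genes tested did not overlap. For each of the 4 a two-sided exact permutation test gave p = 0.1, the smallest that 3 libraries against 3 allow.

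Levels of different genes were compared per length, as FPKM in the siControl libraries. TNFRSF1A stood at 64.8 ± 3.74 FPKM (SD, n = 3), 4.94 times the level of MAP3K5, and 519 genes of the table were higher (12404 genes had a mean of at least 1 FPKM). MAP3K5 followed at 13.1 ± 0.957 FPKM. The intracellular proteins of the receptor complex lay close together, with TAB2 at 9.50 ± 0.327, TRAF2 at 8.88 ± 0.728, TRADD at 7.47 ± 0.249, MAP3K7 at 5.93 ± 0.521, TAB1 at 5.89 ± 0.444 and RIPK1 at 5.54 ± 0.163 FPKM. The libraries of neighbours in this order overlapped for TAB2 and TRAF2, for MAP3K7 and TAB1, and for TAB1 and RIPK1, so those neighbours cannot be put in order. TRAF1 was 9.21 times lower than RIPK1, at 0.601 ± 0.109 FPKM, and TNF was last at 0.0966 ± 0.0236 FPKM.

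In siDAB2IP the order changed in the middle. TNFRSF1A stayed first at 67.8 ± 7.11 FPKM. TRADD, TAB2 and MAP3K5 then stood at 9.72 ± 1.62, 9.64 ± 0.695 and 9.61 ± 1.51 FPKM, so that the distance of MAP3K5 from the adaptors seen in siControl was not seen in siDAB2IP. TRAF1 and TNF were again the lowest, at 0.682 and 0.212 FPKM.

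**Figure D4:**
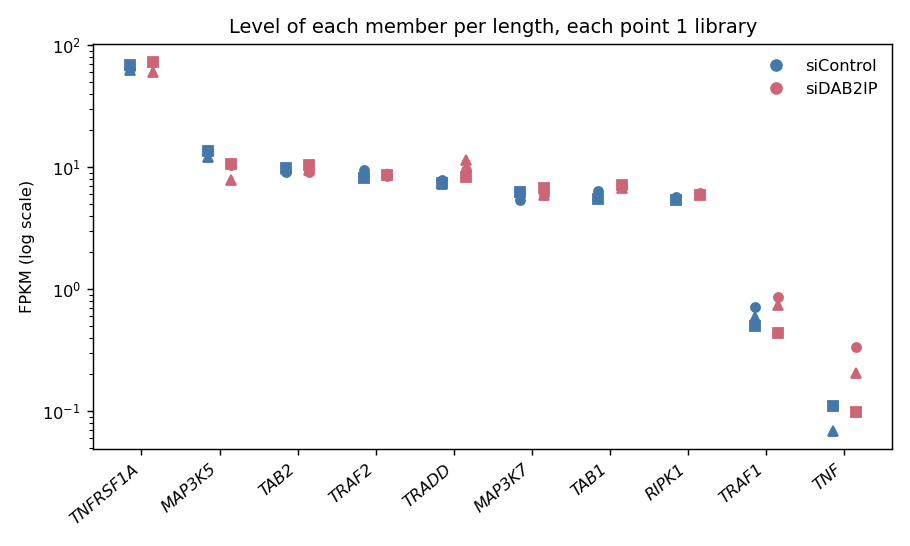
FPKM of each of the 10 genes (y axis, log scale), in order of their mean in siControl, with each point 1 library, siControl in blue and siDAB2IP in red. By the siControl means TNFRSF1A lies at 64.8 FPKM, 7 genes between 5.54 and 13.1 FPKM, and TRAF1 and TNF below 1 FPKM.

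Over the 6 libraries, the profiles closest to those of TNFRSF1A and MAP3K5 were found by the Euclidean distance of log2 CPM centred on siControl. For TNFRSF1A they were DNAJB14, a membrane-bound cochaperone (distance 0.0487), B4GALT1, a galactosyltransferase (0.0526), and CDS1, which makes CDP-diacylglycerol (0.0532), against a median of 0.723 over all genes. For MAP3K5 they were the potassium channel gene KCNC4 (distance 0.0944, median over all genes 1.08), the long noncoding RNA LINC01123 (0.118) and the Ras-related gene RAP2A (0.122). Their log2 fold changes were -0.41, -0.47 and -0.47, and RAP2A alone of these 3 passed the test (edgeR adjusted p = 0.0473, against 0.168 and 0.171 for the other two).

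The other genes of the pathway were taken as 6 lists of 61 genes, of which 57 were tested. By edgeR, 4 rose (7.02%) and 7 fell (12.3%), where 6.55% of all genes rose and 7.65% fell, and their median log2 fold change was -0.03 against 0.01 for all genes. The same shares of all genes stand beside the counts of each list, in which 1 gene alone makes 7.14% to 20% of those tested. With the replicate number as a block, 7 rose and 13 fell, and over all genes 9.59% rose and 11.4% fell. DESeq2, run with no prior filter on low counts, fitted 59 of the pathway genes and called 6 as risen and 8 as fallen. Of all 29567 genes it fitted, 3.71% rose and 4.65% fell. These include low-count genes that edgeR's filter left out, so the shares do not compare directly. By limma on log2(FPKM + 1), 2 of 53 rose and 5 fell (5.51% and 6.58% of 12412 genes). Over all genes too, fewer were called without a siControl library: 264 rose and 459 fell without siControl 2 against 1011 and 1181 with all libraries. Without siControl 2 only BIRC3 of the 57 remained called, without siControl 3 only BIRC3 and GLRX, and without siControl 1 only BIRC3, IKBKG, TRAF3 and TRAF5.

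The gene with the smallest p of the 6 lists was BIRC3, which encodes the ubiquitin ligase cIAP2 that TRAF2 brings to the receptor, and which is itself a target of NF-κB in many cells. BIRC3 stood at 404, 433 and 419 CPM in siControl 1, 2 and 3 and at 242, 220.5 and 164 CPM in siDAB2IP 1, 2 and 3. No library of one group came near the other. Its log2 fold change was -1.004 (SE 0.14, edgeR adjusted p = 0.00278), and it was called with any 1 of the 6 libraries left out. Its relative BIRC2 (cIAP1) stood at 70.9 ± 5.28 and 68.0 ± 12.7 CPM (SD, n = 3), with a log2 fold change of -0.06 (edgeR adjusted p = 0.811).

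Of 14 ubiquitin and IKK proteins of the receptor complex, 2 rose and 1 fell, with a median log2 fold change of -0.00. Beside BIRC3, the called genes were IKBKG, the regulatory subunit NEMO of the IKK complex (0.79, SE 0.17, edgeR adjusted p = 0.0142), and SPATA2, which ties the deubiquitinase CYLD to the complex (0.59, SE 0.17, edgeR adjusted p = 0.0415). IKBKG stood at 12.0, 9.42 and 9.45 CPM in the siControl libraries and at 16.9, 15.6 and 21.0 CPM in the siDAB2IP libraries, without overlap. IKBKG has a near-identical pseudogene, IKBKGP1 (log2 fold change 0.09, edgeR adjusted p = 0.922), so its count is uncertain. The kinases themselves, IKBKB and CHUK, were not called, at log2 fold changes of 0.15 and 0.26.

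**Figure D5:**
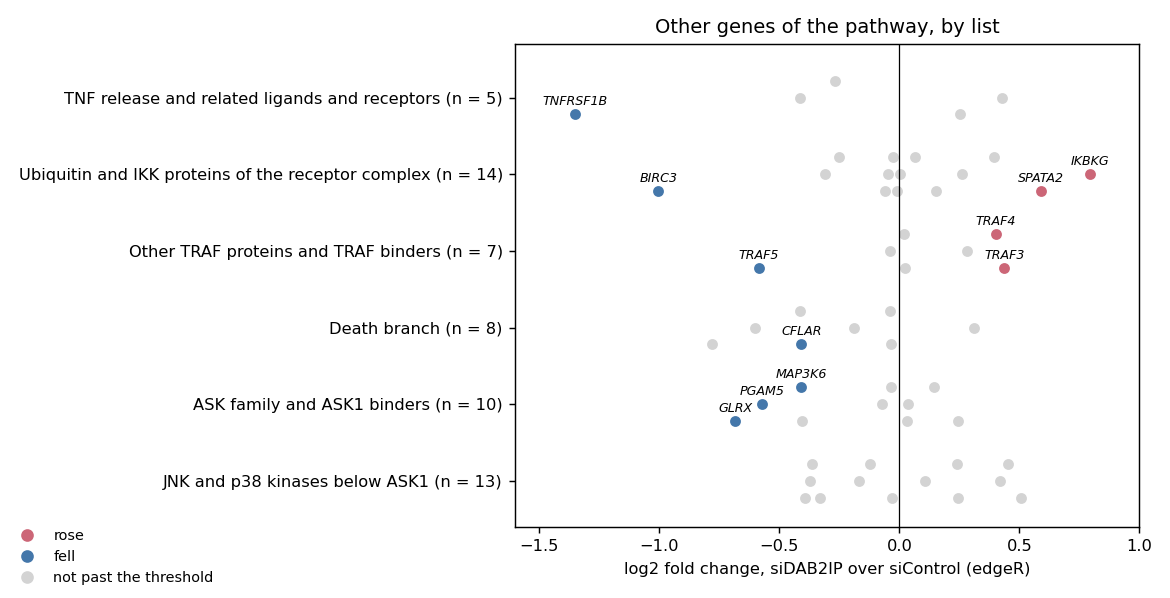
Log2 fold change of siDAB2IP over siControl (x axis) for each of the 57 tested genes of the 6 pathway lists (y axis, height within a list carries no value). The 4 genes that rose are red, the 7 that fell blue and the others grey; TNFRSF1B (-1.35) and BIRC3 (-1.004) lie farthest to the left and IKBKG (0.79) farthest to the right.

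Of 7 other TRAF proteins and TRAF binders, 2 rose and 1 fell, with a median of 0.02. TRAF3, which restrains noncanonical NF-κB signaling, went from 54.4 ± 5.37 to 73.7 ± 7.15 CPM (SD, n = 3, log2 fold change 0.44, edgeR adjusted p = 0.0297). TRAF4, first known from breast carcinoma, went from 128 ± 9.40 to 169 ± 13.6 CPM (0.40, edgeR adjusted p = 0.0306), and it shares exonic bases with antisense genes of at most 108 counts. TRAF5, a relative of TRAF2, went from 39.0 ± 5.26 to 26.0 ± 2.08 CPM (-0.59, edgeR adjusted p = 0.0164). Of the 7 genes 4 did not overlap between the groups, these 3 among them, where 35.9% of all genes tested did not overlap.

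Of the ASK family and ASK1 binders, 10 of 11 genes were tested, 0 rose and 3 fell, with a median log2 fold change of -0.05. At an unadjusted p under 0.05, 0 of the 10 were higher and 4 lower, against 14.5% and 15.5% of all genes tested. DESeq2 called 0 as risen and 3 as fallen, and limma on log2(FPKM + 1) called 0 and 2. MAP3K6, which encodes ASK2, the partner of ASK1, stood at 94.8, 87.6 and 102 CPM in siControl 1, 2 and 3 and at 76.8, 72.0 and 65.1 CPM in siDAB2IP 1, 2 and 3 (log2 fold change -0.41, edgeR adjusted p = 0.0275). GLRX, a glutaredoxin that binds ASK1, went from 28.7 ± 4.11 to 17.9 ± 2.26 CPM (-0.68, edgeR adjusted p = 0.0165), and PGAM5, a mitochondrial phosphatase that activates ASK1, from 56.3 ± 1.32 to 37.8 ± 8.72 CPM (-0.57, edgeR adjusted p = 0.0346). Of the 10 genes tested 4 did not overlap between the groups, these 3 among them, where 35.9% of all genes tested did not overlap. TXN, the thioredoxin that holds ASK1 inactive, stood at 111 ± 6.66 and 114 ± 15.4 CPM (0.03, edgeR adjusted p = 0.896), and MAP3K15 (ASK3), at 1 to 13 counts a library, was not tested.

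Below ASK1, 0 of 13 JNK and p38 kinases and their substrates rose or fell by edgeR, DESeq2 or limma on log2(FPKM + 1), with a median of -0.03. At an unadjusted p under 0.05, JUN was higher and MAPK8 (JNK1), MAPK9 (JNK2) and ATF2 were lower, with log2 fold changes of 0.51, -0.40, -0.37 and -0.33. Of all genes tested, 14.5% were higher and 15.5% lower at that threshold. With the replicate block, MAPK11 (p38β) rose and MAPK9 fell (edgeR adjusted p = 0.0307 and 0.0215).

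In the death branch, 8 of 9 genes were tested, 0 rose and 1 fell. CFLAR, the inhibitor cFLIP that keeps caspase-8 from starting cell death and is a target of NF-κB in many cells, stood at 225, 207 and 203 CPM in siControl 1, 2 and 3 and at 178, 143 and 158 CPM in siDAB2IP 1, 2 and 3 (log2 fold change -0.41, SE 0.11, edgeR adjusted p = 0.0348). Of the 8 genes 7 were lower and the median was -0.30. Over all 15430 genes tested, 7546 were lower and the median was 0.01. At an unadjusted p under 0.05, 1 was higher (CASP8) and 3 were lower, against 14.5% and 15.5% of all genes tested. DESeq2 called 0 as risen and 2 as fallen, and limma on log2(FPKM + 1) called 0 and 1. RIPK3, the kinase of necroptosis, had 0 counts in all 6 libraries, which allows up to 0.139 to 0.187 CPM by library, but it shares 358 exonic bases with AL096870.1 on the same strand, also at 0 counts, so its count is uncertain.

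Of 7 genes of TNF release and of related ligands and receptors, 5 were tested, 0 rose and 1 fell, with a median of -0.27. TNFRSF1B, which encodes TNFR2, the receptor found mostly on immune and endothelial cells, stood at 2.24, 2.6 and 1.94 CPM in siControl 1, 2 and 3 and at 1.47, 0.665 and 0.522 CPM in siDAB2IP 1, 2 and 3 (log2 fold change -1.35, SE 0.39, edgeR adjusted p = 0.0451). TIMP3, which inhibits the TNF-releasing protease ADAM17, was higher at an unadjusted p under 0.05 (0.43, edgeR adjusted p = 0.0542) and was called by DESeq2 and with the replicate block (edgeR adjusted p = 0.0212), while limma on log2(FPKM + 1) called 0. ADAM17 itself had a log2 fold change of -0.41 (edgeR adjusted p = 0.146) and passed with the replicate block (edgeR adjusted p = 0.0357), as did RHBDF2, a partner of ADAM17, at -0.27 (edgeR adjusted p = 0.0497). ADAM17 shares 1323 exonic bases with IAH1 on the opposite strand. IAH1 held 1963 counts over the 6 libraries against 11017 for ADAM17, and the strand used in counting is not given, so the ADAM17 count is uncertain. LTA, a ligand of TNFR1, had 0 counts in all 6 libraries, and LTB, at 2 to 9 counts a library, was not tested.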

How the data were processed

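The 6 RNA-Seq libraries of MCF10A cells, 3 siControl and 3 siDAB2IP, were grouped by their labels. The authors deposited whole-number counts per gene without normalization, and FPKM values, in which each count is divided by gene length and a library total. The submitters' processing notes name STAR 2.6.1d, featureCounts 1.5.0-p3, DESeq2 1.20.0, edgeR 3.24.3 and hg38 without their roles. The strand used in counting is not given in the sources used here. All 58735 genes had the start, end and strand of GENCODE release 29 (GRCh38), the source of the coordinates and overlaps.

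The counts were fitted with edgeR 4.0.16 in R 4.3.3 (default filterByExpr on the groups, minimum count 10, TMM, glmQLFit, glmQLFTest) for siDAB2IP against siControl, with Benjamini-Hochberg adjustment over the 15430 genes tested, called at an adjusted p under 0.05. The F statistic of the quasi-likelihood test gave SEs and intervals. Library totals were 16353783 to 21916062, which sets the precision of each value. Tests of a single gene's CPM were two-sided exact permutation tests. Motifs were searched with Python 3.11.15. Scripts were tested on simulated data.

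Replicates are numbered 1, 2 and 3 in both groups. After removal of group means, log2 CPM of same-numbered libraries correlated across genes at 0.26, 0.15 and 0.25, and of others at -0.28 to 0.021. That libraries of 1 number are pairs is an inference from these values, and it was used only in the alternative with the replicate block. The reported fit treats the libraries as unpaired, since the study's methods state no block.

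The alternatives were DESeq2 1.42.0, RLE size factors, library size only, no filter, at least 10 counts in every library, the replicate block, limma 3.58.1 on log2(FPKM + 1) or log2(FPKM + 0.1) for genes with a mean of at least 1 FPKM or for all genes with a count, an adjusted p under 0.01, and leaving out each library. The genes named are the 10 genes, DAB2IP, the called genes of each pathway list (at most 6), genes of these lists at 0 counts, and the 3 closest profiles to TNFRSF1A and MAP3K5. BIRC2, IKBKB, CHUK, TXN, MAP3K15, LTB, ADAM17, RHBDF2, TIMP3, CASP8, JUN, MAPK8, MAPK9, MAPK11, ATF2, IKBKGP1 and the single markers were named after their values were seen. The genes and lists were chosen with earlier results of these data known. Values of a few single genes are not reported here.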

Additional observations from a re-analysis of the deposited data

How the results depend on the processing

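The fall of DAB2IP kept its direction and its call in all 15 alternatives (log2 fold change -1.99 to -1.55), and 0 of the 10 genes rose in any alternative. The count of these genes that fell, 1 in the report, was 0 with limma on log2(FPKM + 1), on log2(FPKM + 0.1) and on all genes with a count, 0 at an adjusted p under 0.01, and 0 to 1 with 1 library left out. Of the pathway genes, 4 rose and 7 fell in the report. The counts were 8 and 11 without a filter on low counts, 7 and 13 with the replicate block, 0 and 1 with limma on all genes with a count, 0 and 1 at an adjusted p under 0.01, and 0 to 4 and 1 to 7 with 1 library left out. With limma on log2(FPKM + 1) or log2(FPKM + 0.1), 2 rose and 5 fell. The cause of these differences was not tested. Of all genes too, fewer were called in the fits without 1 library, except without siDAB2IP 3 (1172 rose and 1352 fell, against 1011 and 1181). The replicate block left each call on the 10 genes as it was (MAP3K5 -0.45, adjusted p = 0.00943 by edgeR). The sign turned for TRAF1 without siDAB2IP 1, for MAP3K7 and TAB2 without siControl 1 and for TAB2 without siDAB2IP 2, with ranges of -0.021 to 0.43, -0.027 to 0.096 and -0.036 to 0.067 over the fits that left out 1 library. Of the 11 called pathway genes, BIRC3 was called in 6 of 6 fits with 1 library left out, IKBKG and GLRX in 4, TRAF5 in 3, TRAF3, TRAF4, CFLAR, MAP3K6 and PGAM5 in 2, and SPATA2 and TNFRSF1B in 1. At 3 libraries a group, the intervals of the genes not called still hold changes of up to 0.81 on the log2 scale (TRAF1), and TNF is limited by its depth of 2 to 10 counts a library.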
